A study of Mus musculus with 8 samples.

Results

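Transcripts of 9 tetraspanin genes were described in flow-sorted mouse astrocytes: Tspan3, Tspan5, Tspan6, Tspan7, Cd9, Cd63, Cd81, Cd82 and Cd151. These family members were selected on their levels in cortical against subcortical samples of the same libraries, paired by mouse, and were matched by Ensembl gene identifier to the rows of the count tables. All 9 had a row among the 55417 gene rows, and all 9 passed the low-count filter. The counts of the other 22 genes of the family, 31 in all, were compared with them. The cells came from 4 wild-type (WT) mice at postnatal day 29. Mice 1 and 4 were male and mice 2 and 3 female, and astrocytes of both regions were taken from every mouse. There were therefore 4 libraries for a region and 2 for a sex within it. The labels list no treatment and no further allele. How the cells were gated in the sort is not stated in the labels. Libraries are named here by region and mouse number (cortical 1, subcortical 1).

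Tetraspanins are small proteins that cross the membrane several times and gather integrins, immunoglobulin-like proteins, proteases and signalling enzymes into membrane microdomains. Cd9, Cd63 and Cd81 are abundant in extracellular vesicles and serve as their usual markers. Cd63 sits mainly in late endosomes and lysosomes, whereas Cd9, Cd81, Cd82 and Cd151 are mostly found at the cell surface. Tspan5 belongs to the group of tetraspanins that carry the protease Adam10 out of the endoplasmic reticulum. Tspan7 binds Pick1 and bears on the trafficking of AMPA receptors in neurons. Astrocytes are glial cells that take up neurotransmitters and contact synapses and blood vessels.

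The promoters of Tspan7 and Cd81 are shown because they had the largest rise and the largest fall of the 9 genes between the regions. Both are the 250 bases before the transcription start in RefSeq, build GRCm38.p6, read 5′ to 3′ along the gene's strand. For Tspan7 the window is chrX:10484866-10485115 and for Cd81 it is chr7:143052500-143052749, both on the plus strand. Capitals mark GGGCGG on either strand, so that a match on the opposite strand reads CCGCCC.
Tspan7: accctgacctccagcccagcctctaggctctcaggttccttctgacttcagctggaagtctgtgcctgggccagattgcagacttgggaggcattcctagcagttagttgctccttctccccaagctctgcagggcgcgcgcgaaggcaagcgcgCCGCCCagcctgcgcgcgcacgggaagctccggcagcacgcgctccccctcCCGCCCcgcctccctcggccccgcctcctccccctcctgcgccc
Cd81: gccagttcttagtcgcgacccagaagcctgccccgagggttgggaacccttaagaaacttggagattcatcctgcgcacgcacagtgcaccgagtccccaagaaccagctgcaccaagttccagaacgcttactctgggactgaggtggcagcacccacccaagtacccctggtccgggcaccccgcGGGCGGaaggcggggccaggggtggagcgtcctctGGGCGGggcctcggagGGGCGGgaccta
The Tspan7 window held 2 such matches, 19 CG dinucleotides and 69.2% G or C. The Cd81 window held 3 matches, 16 CG dinucleotides and 65.6% G or C. Each match contains a CG itself, so the counts overlap. Of 32851 promoter windows of this length, 32.7% held the motif, and the median window had 6 CG dinucleotides (interquartile range 2 to 16). All 9 genes matched the RefSeq table. Taking the window listed first for each gene, 6 of the 9 held GGGCGG, namely those of Tspan5, Tspan7, Cd9, Cd81, Cd82 and Cd151. TATAAA was in none of the 9 windows and in 12.4% of all, on either strand. The E-box CANNTG was in 5 of the 9 and in 66.2% of all, and TAATTA was in none of the 9 and in 4.84% of all. TGACG, the core of the cyclic AMP response element, was in 1 of the 9, that of Cd63, and in 17.8% of all. The Tspan7 and Cd81 windows both held GGGCGG and the E-box, and neither held any of the other 3 motifs.

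Gene counts summed to 3.54 to 4.06 M per cortical library and 2.48 to 3.83 M per subcortical library. Levels are CPM, counts brought to a common library total, with the totals adjusted by the trimmed mean of M-values (TMM). The kit is meant to count about 1 fragment per transcript end, so CPM was not divided by transcript length. Comparisons of level between genes assume that reads were assigned equally well to each gene. That was not tested, and 30.2 to 40.7% of reads had no feature. Summed levels of 11 astrocyte markers ran from 31429 to 32850 CPM for cortical and from 20268 to 22317 CPM for subcortical samples, far above those of any other marker list (4 higher in cortical libraries, namely Slc1a2, Slc1a3, Gfap and Glul, and Aqp4 lower). The 9 oligodendrocyte markers summed to 821 to 1327 and 2196 to 5550 CPM, and 7 of the 9 were lower in the cortical libraries. The 5 markers of oligodendrocyte precursors summed to 132 to 233 and 299 to 454 CPM (1 lower, Gpr17 at 0 in all libraries). The 10 neuronal markers summed to 222 to 463 and 68.4 to 120 CPM (2 higher, 1 lower), with Nrgn alone at 134 to 307 CPM in the cortical libraries. The 9 microglial markers summed to 133 to 312 and 54.2 to 119 CPM (3 higher). The 6 mural markers summed to 463 to 1026 and 329 to 1181 CPM (0 called), the 7 endothelial markers to 4.19 to 8.29 and 3.05 to 17.4 CPM (0 called, Cdh5 at 0 in all libraries), and the 4 ependymal and choroid markers to 22.02 to 54.0 and 44.6 to 651 CPM (1 lower, highest in subcortical 3). These counts of calls come from edgeR's quasi-likelihood test. Several sums thus moved with the region, and their part in the results that follow was not tested. In bulk samples, fewer cells of a type and less RNA per cell cannot be told apart.

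The family's RNA was concentrated in a few genes. Cd63, Tspan7, Cd81 and Tspan3 were the 4 most abundant tetraspanins in all 8 libraries, and the 9 genes together made up 94.7 ± 0.412% of all tetraspanin counts in cortical and 94.0 ± 0.538% in subcortical libraries (SD, n = 4). Counts of the 31 genes summed to 8290 ± 947 CPM per cortical library and 7712 ± 629 CPM per subcortical library (SD, n = 4), and the ranges, 7153 to 9168 and 7223 to 8627 CPM, overlapped. The make-up differed, which is a description of genes chosen on the region difference. Tspan7 took 27.0 ± 3.41% of the family's counts in cortical libraries (range 22.4 to 30.1%) and 7.79 ± 0.793% in subcortical ones (range 6.81 to 8.47%). Cd81 took 14.7 ± 1.10% (range 13.6 to 15.7%) and 33.0 ± 3.57% (range 29.7 to 37.9%). The share of Cd63 was 44.3 ± 5.26% and 41.7 ± 4.67%, and that of Tspan3 was 5.57 ± 0.739% and 7.12 ± 1.46% (SD, n = 4 in each region). Cd63 ranked highest in 7 of the 8 libraries. In subcortical 3 it was passed by Cd81, with 34.8% against 37.9%.

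**Figure D1:**
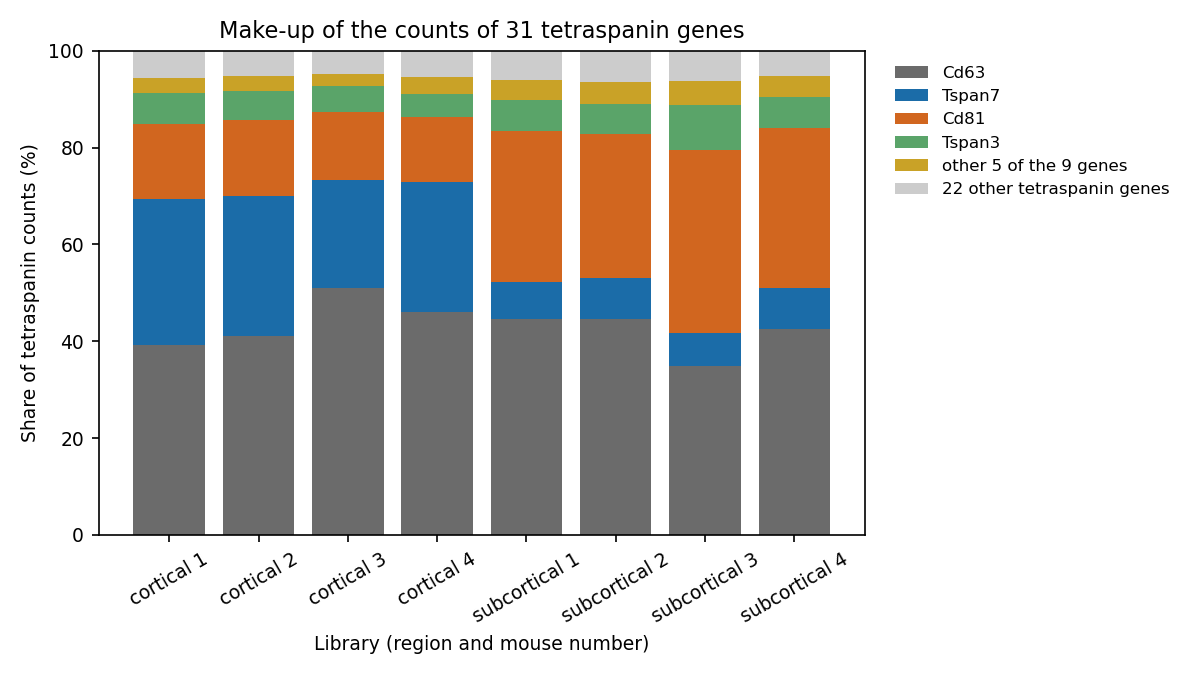
Share of the counts of 31 tetraspanin genes (%, y axis) taken by Cd63, Tspan7, Cd81, Tspan3, the other 5 of the 9 genes and the remaining 22 genes, in each of the 8 libraries (x axis). The Tspan7 segment spans 22.4 to 30.1% in the cortical libraries and 6.81 to 8.47% in the subcortical ones, and the Cd81 segment 13.6 to 15.7% and 29.7 to 37.9%.

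The region difference was used when the genes were chosen, so their cortical and subcortical levels are given as a description, without a test. For orientation, 3 of the 9 were among the genes called by edgeR's quasi-likelihood test at an adjusted p under 0.05 (Tspan7 higher in cortical libraries, Cd81 and Tspan5 lower). Of all 11781 tested genes 6.81% were called, 3.42% higher and 3.39% lower. The cortical and subcortical ranges of 4 of the 9 (these 3 and Tspan6) did not overlap, as was the case for 12.2% of all tested genes, 6.54% with the cortical values higher and 5.64% with them lower. Nothing is read from either count. The median log2 fold change of the 9, cortical minus subcortical, was -0.11, and that of all tested genes was -0.0099. Unless a block is named, SEs and intervals of region differences come from a fit without a term for the mouse. They do not use the pairing of the samples.

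Among the 9 genes, Tspan7 had the largest difference and the higher level in cortical astrocytes. It stood at 2152, 2654, 2005 and 2108 CPM in the cortical libraries of mice 1 to 4 and at 646, 621, 492 and 644 CPM in the subcortical libraries of the same mice. Every cortical value was thus more than 3 times the highest subcortical value, with cortical 2 highest of all and subcortical 3 lowest. The means were 2230 ± 290 and 600.6 ± 73.5 CPM (SD, n = 4), a 3.71-fold difference, or 1.89 on the log2 scale (SE 0.16, 95% interval 1.57 to 2.22). Within mice 1 to 4 the cortical level was 3.33, 4.28, 4.08 and 3.27 times the subcortical one. Among the tested genes Tspan7 ranked at number 33 by mean level in cortical libraries and at number 157 in subcortical libraries. The summed level of the 10 neuronal markers was also higher in the cortical libraries, at 222 to 463 against 68.4 to 120 CPM, and its part in the difference was not tested.

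Cd81, which at the cell surface holds the immunoglobulin-like protein Igsf8, differed in the opposite direction. Its levels were 1113, 1444, 1249 and 1072 CPM in cortical 1 to 4 and 2693, 2200, 2741 and 2508 CPM in subcortical 1 to 4. The subcortical values all lay above the cortical ones, and mouse 2 had the highest cortical and the lowest subcortical level. The means were 1219 ± 167 and 2536 ± 245 CPM (SD, n = 4), a 2.08-fold higher level in subcortical libraries (log2 fold change, cortical minus subcortical, -1.06, SE 0.15, 95% interval -1.37 to -0.74). The subcortical level was 2.42, 1.52, 2.19 and 2.34 times the cortical one in mice 1 to 4. Oligodendrocytes also make Cd81, and their markers were higher in the subcortical libraries. In subcortical 1, 2, 3 and 4 those 9 markers summed to 5550, 3008, 2805 and 2196 CPM. In cortical 1, 2, 3 and 4 they summed to 1152, 821, 960 and 1327 CPM. The part of these cells in the difference was not tested.

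Tspan7 and Cd81 had the largest rise and the largest fall of genes chosen on the region difference. The ratio of their counts therefore separates the regions by selection, and it is given as a description. Counts of Tspan7 were 1.84 ± 0.163 times those of Cd81 in cortical libraries (SD, n = 4, range 1.61 to 1.97) and 0.240 ± 0.0437 times in subcortical libraries (range 0.179 to 0.282). The ratio is taken within a library and does not depend on the scaling between libraries.

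**Figure D2:**
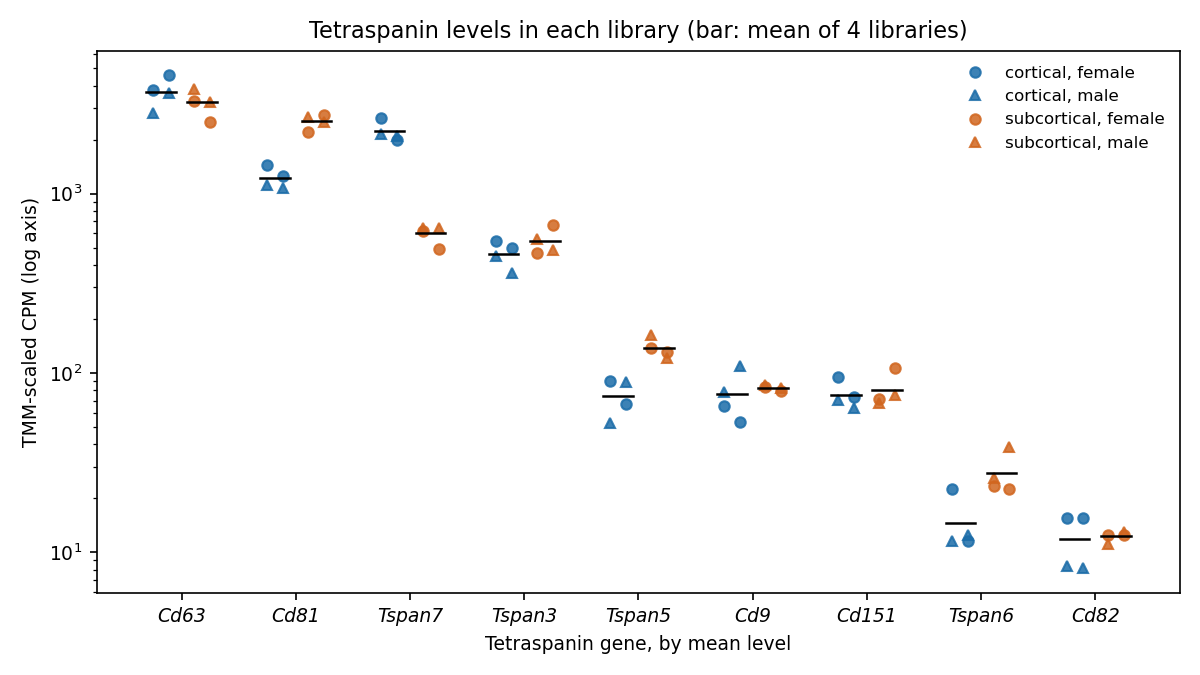
Level of each of the 9 genes (TMM-scaled CPM, log axis) in the 4 cortical (blue) and 4 subcortical (orange) libraries, with circles for female and triangles for male mice and a bar at the mean of 4 libraries. The groups are apart for Tspan7, Cd81, Tspan5 and, narrowly, Tspan6, and overlap for Cd63, Tspan3, Cd9, Cd151 and Cd82.

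Cd63, the tetraspanin of late endosomes and lysosomes, was the most abundant member in both regions. It stood at 2810, 3766, 4569 and 3625 CPM in cortical 1 to 4 and at 3854, 3304, 2517 and 3234 CPM in subcortical 1 to 4. The ranges overlapped, and mouse 1 had the higher level in the subcortical sample while the other 3 mice had it in the cortical one. The means were 3693 ± 721 and 3227 ± 549 CPM (SD, n = 4), which placed Cd63 at numbers 23 and 25 of the tested genes, and the log2 fold change was 0.19 (SE 0.17, 95% interval -0.15 to 0.54). Cd9, a myelin and vesicle tetraspanin, stood at 78.6, 65.0, 52.9 and 109 CPM in cortical and at 86.0, 83.1, 78.8 and 82.8 CPM in subcortical libraries 1 to 4. The subcortical values lay close together, inside the cortical range, with coefficients of variation of 3.57% and 31.7%. The means were 82.7 ± 2.95 CPM in subcortical and 76.4 ± 24.2 CPM in cortical libraries (SD, n = 4), a log2 difference of -0.11 (SE 0.22, 95% interval -0.56 to 0.34).

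Tspan5, the partner of Adam10, was lower in cortical libraries. Its levels were 52.7, 89.9, 66.9 and 89.0 CPM in cortical 1 to 4 and 162, 138, 131 and 121 CPM in subcortical 1 to 4. The lowest subcortical value lay above the highest cortical one. The means of 74.6 ± 18.1 and 138 ± 17.6 CPM (SD, n = 4) gave a 1.85-fold higher subcortical level (log2 fold change -0.89, SE 0.20, 95% interval -1.30 to -0.47). By mouse the subcortical level was 3.07, 1.54, 1.96 and 1.36 times the cortical one, a wider spread than for Tspan7 or Cd81. Adam10 itself was at 36.4 ± 15.3 and 32.8 ± 10.5 CPM (SD, n = 4), with a log2 fold change of 0.15 (SE 0.31).

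Tspan6, a relative of Tspan7 that like it lies on the X chromosome, was a low-level gene with 553 counts in all. It stood at 11.6, 22.5, 11.6 and 12.4 CPM in cortical and at 26.0, 23.4, 22.6 and 38.8 CPM in subcortical libraries 1 to 4. The ranges missed each other by a narrow margin, since cortical 2 (22.5 CPM) came close to subcortical 3 (22.6 CPM). The means were 14.5 ± 5.35 and 27.7 ± 7.52 CPM (SD, n = 4), a 1.91-fold higher subcortical level (log2 fold change -0.93, SE 0.33, 95% interval -1.63 to -0.24). As a description, the log2 difference ran from -1.22 (without cortical 2) to -0.72 with single libraries left out. The gene was called in 1 of 16 alternative fits, the one without cortical 2. Although Tspan6 and Tspan7 share a chromosome, their differences had opposite signs. In fold, that of Tspan6 was similar to that of Tspan5 and Cd81, but its SE was the largest of the 4.

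Tspan3, the fourth most abundant tetraspanin in most libraries, stood at 448, 545, 496 and 359 CPM in cortical and at 559, 464, 672 and 488 CPM in subcortical libraries 1 to 4. Values from the regions were interleaved, and the subcortical sample was the higher in 3 of 4 mice. The means were 462 ± 79.4 and 546 ± 93.3 CPM (SD, n = 4), with a log2 fold change of -0.24 (SE 0.17, 95% interval -0.60 to 0.12).

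The remaining pair are surface tetraspanins that bind integrins. Cd151, a close partner of the laminin-binding integrins, stood at 71.0, 94.6, 73.1 and 63.9 CPM in cortical and at 67.8, 71.2, 106 and 75.3 CPM in subcortical libraries 1 to 4. Cd82 stood at 8.38, 15.5, 15.6 and 8.14 CPM in cortical and at 11.2, 12.4, 12.5 and 13.01 CPM in subcortical libraries 1 to 4. In cortical libraries Cd82 fell into a pair of higher values, from mice 2 and 3, and a pair of lower ones, from mice 1 and 4, with the subcortical values between them. Cd151 had means of 75.6 ± 13.2 and 80.0 ± 17.5 CPM (log2 fold change -0.08, SE 0.21, 95% interval -0.52 to 0.35). Cd82 had means of 11.9 ± 4.21 and 12.3 ± 0.785 CPM (SD, n = 4 for both genes), with a log2 fold change of -0.05 (SE 0.42, 95% interval -0.91 to 0.82). The interval for Cd82 leaves room for a nearly 2-fold difference either way, and the gene had 331 counts in all 8 libraries. With library totals alone as the scaling, the small differences of Cd9, Cd82 and Cd151 changed sign, to 0.09, 0.15 and 0.10.

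**Figure D3:**
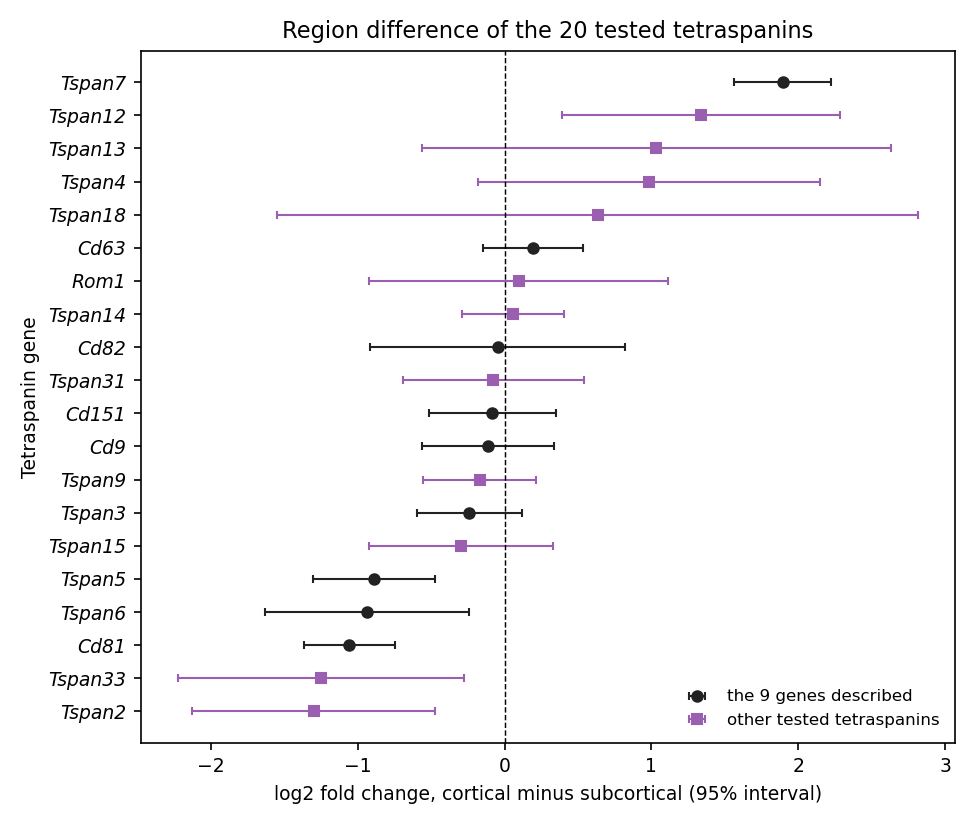
Log2 fold change, cortical minus subcortical, with its 95% interval (x axis) for the 20 tetraspanin genes that passed the low-count filter (y axis), with circles for the 9 genes described and squares for the other 11. Tspan7 lies at 1.89, Cd81 at -1.06, Tspan6 at -0.93 and Tspan5 at -0.89, and the widest intervals belong to low-count genes among the other 11.

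In order of mean level, the cortical sequence was Cd63, Tspan7, Cd81, Tspan3, Cd9, Cd151, Tspan5, Tspan6 and Cd82, and the subcortical sequence was Cd63, Cd81, Tspan7, Tspan3, Tspan5, Cd9, Cd151, Tspan6 and Cd82. In cortical libraries the neighbours Cd9, Cd151 and Tspan5 (76.4, 75.6 and 74.6 CPM) lay within each other's SD, as did Tspan6 and Cd82. In subcortical libraries Tspan7 and Tspan3 (600.6 and 546 CPM) lay within 1 SD of each other, as did Cd9 and Cd151. Mean levels of the 9 genes spanned 11.9 to 3693 CPM in cortical and 12.3 to 3227 CPM in subcortical libraries.

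Profiles over the 8 libraries were compared by the root mean square distance between log2(CPM + 1) values centred on each gene's mean. This distance describes likeness within 8 libraries that share their depth and mice, and it carries no test. It includes the region difference used in choosing the 9 genes, so genes with similar region differences tend to lie near each other. The closest pair among the 9 genes was Tspan3 and Cd151 (0.157), followed by Tspan3 and Cd82 (0.256) and by Tspan5 and Cd81 (0.259). Of 7966 candidate genes with a mean of at least 10 CPM, the 5 nearest to Tspan7 were Pantr1 (0.164), Plekho1 (0.167), Cspg5 (0.170), Nr2e1 (0.187) and Fam163a (0.197), and the median distance of all candidates was 1.03. Cspg5, a membrane-bound chondroitin sulfate proteoglycan, was close to Tspan7 in level too, with cortical and subcortical means of 1696 ± 261 and 452 ± 58.4 CPM (SD, n = 4). Nr2e1, an orphan nuclear receptor of neural stem cells, was far lower, at 36.8 ± 4.60 and 9.70 ± 2.21 CPM. Nearest to Cd81 were Cyp2j6 (0.101), Sorl1 (0.139), Lrrc8a (0.155), Ptprd (0.165) and Ntrk3 (0.166), with a median of 0.667 over all candidates. Lrrc8a, the obligatory subunit of the volume-regulated anion channel, stood at 180 ± 18.9 and 320 ± 21.5 CPM, and Sorl1, a sorting receptor of the endosome, at 218 ± 22.9 and 397 ± 64.6 CPM (SD, n = 4).

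Most of the other 22 tetraspanins were scarce. Of these 22, 11 passed the low-count filter. None was called between the regions by edgeR's quasi-likelihood test without a mouse term, which called 6.81% of all tested genes. With the mouse as a block, edgeR called 1 of them, Tspan33, and 7.52% of all tested genes. DESeq2 called 1 of them and 1029 genes in all. By edgeR without the block 3 had an unadjusted p under 0.05, and the share of all genes at that limit was not taken. Their median log2 fold change was 0.05. Tspan1, Tspan8 and Tspan10 had no counts in any library, where a count of 0 allows up to 0.696 to 1.43 CPM depending on the library. The leukocyte tetraspanins Cd37 and Cd53 had 16 and 39 counts over all libraries. The retinal Prph2 had 9, and the uroplakins Upk1a and Upk1b had 18 and 3.

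The most abundant of the others, Tspan14 and Tspan9, had similar levels in the regions. Tspan14, like Tspan5 a partner of Adam10, averaged 183 ± 12.6 and 176 ± 27.7 CPM (SD, n = 4), with a log2 fold change of 0.05 (SE 0.17). Tspan9 was at 103 ± 15.1 and 116 ± 16.0 CPM (log2 fold change -0.17, SE 0.18) and Tspan31 at 30.6 ± 7.43 and 32.2 ± 10.3 CPM (log2 fold change -0.08, SE 0.30). Both of these differences changed sign, to 0.03 and 0.15, with library totals alone as the scaling.

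Tspan2, a tetraspanin of oligodendrocytes and myelin, was uneven among the subcortical libraries. It stood at 15.04, 8.29, 19.0 and 26.1 CPM in cortical 1 to 4 and at 67.0, 24.4, 60.1 and 17.7 CPM in subcortical 1 to 4. Subcortical 1 and 3 were high, and subcortical 2 and 4 lay near or inside the cortical range. The log2 fold change of -1.30 (SE 0.40) missed the threshold, with an adjusted p of 0.053 by edgeR's quasi-likelihood test and 0.031 by DESeq2. With single libraries left out the adjusted p by edgeR ran from 0.013 (without subcortical 4) to 0.247 (without subcortical 1), and it was also under the threshold without cortical 4 (0.0256) and without subcortical 2 (0.0329). The oligodendrocyte markers summed to 5550, 3008, 2805 and 2196 CPM in subcortical 1 to 4, and their part in the difference was not tested.

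A further pair of low-level genes was singled out after the values had been seen. Tspan33, another Adam10 partner, was lower in the cortical sample of all 4 mice, at 7.1, 21.0, 9.3 and 3.1 CPM against 22.7, 39.6, 19.8 and 14.9 CPM in subcortical 1 to 4. Its log2 fold change of -1.25 (SE 0.47) gave an adjusted p of 0.134 by edgeR's quasi-likelihood test and of 0.021 with the mouse as a block. The levels of mouse 2 were the highest in both regions. Tspan12, a coreceptor of the Norrin and Fzd4 pathway, averaged 19.5 ± 8.66 and 7.75 ± 3.73 CPM, higher in the cortical sample of all 4 mice and without overlap (log2 fold change 1.34, SE 0.46, adjusted p = 0.090 by edgeR's quasi-likelihood test). Fzd4 itself, the receptor of that pathway, was at 48.3 ± 14.2 and 33.0 ± 3.91 CPM (SD, n = 4), with an adjusted p of 0.271 in the same fit.

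Of 20 listed partners of tetraspanins, 17 were tested and 4 were called by edgeR's quasi-likelihood test, 2 higher and 2 lower in cortical libraries, or 23.5% against 6.81% of all tested genes. The list's median log2 fold change was 0.15. DESeq2 called 5 of them and 1029 genes in all. The gene it added was Slc3a2, lower in the cortical sample of all 4 mice (adjusted p = 0.048 by DESeq2, 0.189 by edgeR). The pair called lower by edgeR were alpha chains of laminin-binding integrins, the class of integrin that Cd151 holds. Of other listed chains of this class, Itga3 had 51 counts and was not tested. Itgb4 was not called (adjusted p = 0.269 by edgeR). Itga7 stood at 72.0, 42.0, 52.0 and 94.8 CPM in cortical and at 143, 113, 181 and 178 CPM in subcortical libraries 1 to 4 (log2 fold change -1.24, SE 0.23, adjusted p = 0.0013 by edgeR). Itga6 stood at 319, 244, 278 and 289 CPM in cortical and at 552, 482, 416 and 446 CPM in subcortical libraries 1 to 4 (log2 fold change -0.75, SE 0.16, adjusted p = 0.0041 by edgeR). Neither gene's ranges overlapped, although the adjusted p of Itga6 was 0.052 with library totals alone. Their beta chain Itgb1 was at 106 ± 16.4 and 101 ± 20.03 CPM (SD, n = 4, log2 fold change 0.07, SE 0.19).

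The other partners called by edgeR were higher in cortical libraries. Cd47, the ligand that restrains phagocytes through Sirpa, stood at 204, 235, 189 and 231 CPM in cortical and at 119, 107, 111 and 130 CPM in subcortical libraries 1 to 4 (log2 fold change 0.88, SE 0.16, adjusted p = 0.0012 by edgeR). Igsf3, of the family of immunoglobulin-like proteins that bind tetraspanins, stood at 22.7, 21.2, 28.1 and 31.4 CPM in cortical and at 11.2, 15.8, 6.9 and 10.8 CPM in subcortical libraries 1 to 4. The groups of both genes did not overlap. The call of Igsf3 (log2 fold change 1.22, SE 0.34, adjusted p = 0.033 by edgeR) was lost when cortical 1, 3 or 4 was left out, and also without subcortical 1, 3 or 4 (0.0538 to 0.0974). Igsf8, the main partner of Cd9 and Cd81, was at 114 ± 31.3 and 131 ± 15.9 CPM (SD, n = 4), with a log2 fold change of -0.20 (SE 0.20) and an adjusted p of 0.705 by edgeR. Pick1, the partner of Tspan7, was at 27.1 ± 8.99 and 26.9 ± 8.38 CPM (log2 fold change -0.0023, SE 0.31). Gria2, the AMPA receptor subunit, was at 558 ± 46.1 and 414 ± 123 CPM (SD, n = 4, log2 fold change 0.43, SE 0.19, adjusted p = 0.218 by edgeR).

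Of 24 listed genes of the ESCRT machinery and of vesicle traffic, 22 were tested and 1 was called by edgeR's quasi-likelihood test (4.55% against 6.81% of all tested genes; with the mouse as a block 2, against 7.52%), with a median log2 fold change of 0.10. The gene called was Chmp4b, the ESCRT-III subunit that forms the constricting filament, with cortical and subcortical means of 312 ± 42.5 and 200 ± 3.08 CPM (SD, n = 4; log2 fold change 0.64, SE 0.16, adjusted p = 0.014, and 0.054 without cortical 3, by edgeR). The gene added by the block was Flot2, a lipid raft protein, at 52.4 ± 17.2 and 28.4 ± 9.29 CPM (adjusted p = 0.079, and 0.028 with the block, by edgeR). Sdcbp, the syntenin that links Cd63 to vesicle budding, was at 96.2 ± 7.91 and 64.5 ± 13.8 CPM (log2 fold change 0.57, SE 0.20, adjusted p = 0.098 by edgeR).

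Of 20 lysosomal genes, 19 were tested and 3 were called by edgeR's quasi-likelihood test, 2 higher and 1 lower in cortical libraries (15.8% against 6.81%), with a median log2 fold change of 0.0065. Npc1, which moves cholesterol out of the lysosome, stood at 299.98, 310.1, 286 and 347 CPM in cortical and at 171, 124, 154 and 148 CPM in subcortical libraries 1 to 4, without overlap (log2 fold change 1.06, SE 0.16, adjusted p = 0.00016 by edgeR). Ctsl, a cysteine protease, was lower in cortical libraries, at 169 ± 7.71 against 290 ± 26.0 CPM (SD, n = 4, log2 fold change -0.78, SE 0.16, adjusted p = 0.0023 by edgeR). Grn, a lysosomal growth factor precursor that microglia make in large amounts, was higher, at 204 ± 34.0 against 127 ± 15.6 CPM (SD, n = 4, log2 fold change 0.68, SE 0.17, adjusted p = 0.017 by edgeR). The call of Grn was lost without cortical 3 (0.096) or subcortical 3 (0.052). Microglial markers were also higher in cortical libraries, and their part was not tested. Lamp1, the major membrane protein of the compartment in which Cd63 resides, was at 650 ± 55.3 and 645 ± 56.9 CPM (SD, n = 4), a log2 fold change of 0.01 (SE 0.15).

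The series title names female mice, and sex was not used in choosing the 9 genes, so it was tested. None of the 9 passed between females and males in edgeR's quasi-likelihood test on counts summed per mouse (0 called of 9, 0 at an unadjusted p under 0.05, 0 by DESeq2, against 0.0373% of 13402 tested genes called by edgeR). The adjusted p was 0.999 or more for each of the 9. Female minus male log2 differences ran from -0.40 for Cd9 (SE 0.22, 95% interval -0.88 to 0.08) to 0.54 for Cd82 (SE 0.42, 95% interval -0.37 to 1.45). For the abundant genes the intervals were narrower: -0.28 to 0.38 for Cd81, -0.17 to 0.47 for Cd63 and -0.24 to 0.54 for Tspan7. The X-linked Tspan6 had an interval of -0.86 to 0.66. With 2 mice per sex, any difference inside these intervals is compatible with the data. The intervals are not limits of detection.

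Within the cortical libraries none of the 9 passed by edgeR's quasi-likelihood test, which called 0.0375% of 13334 genes (0 of the 9 by DESeq2). At an unadjusted p under 0.05 by edgeR (share of all genes not taken) lay 1 of the 9. That gene was Cd9, with 65.0 and 52.9 CPM in females 2 and 3 and 78.6 and 109 CPM in males 1 and 4. The log2 difference was -0.67 (SE 0.30, adjusted p = 1.00 by edgeR). The cortical values of the sexes did not overlap for 6 of the 9 genes (females higher for Tspan3, Cd63, Cd81, Cd82 and Cd151 and lower for Cd9), and they did not overlap for 32.6% of all tested genes (16.8% females higher, 15.8% lower). In subcortical libraries the sexes did not overlap for 2 of the 9 genes, Tspan6 and Tspan7, with females lower for both, and for 30.8% of all tested genes (15.9% females lower). None of the 9 passed there by edgeR's quasi-likelihood test (0 at an unadjusted p under 0.05, 0 by DESeq2, 0.03% of all tested genes called by edgeR).

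The region difference was then compared between the sexes, in a fit without a term for the mouse. The SEs and intervals below therefore do not use the pairing of the samples. No gene at all was called for this interaction by edgeR's quasi-likelihood test (0% of 13334 genes). With the mouse as a block, edgeR called 1 gene, outside the 9. Without the block, 0 of the 9 were called by DESeq2. At an unadjusted p under 0.05 by edgeR (share of all genes not taken) lay 1 of the 9. That was Cd63, for which the cortical minus subcortical log2 difference was 0.67 larger in females than in males (SE 0.31, adjusted p = 1.00 by edgeR). In mice 2 and 3, the females, Cd63 was 1.14 and 1.82 times as high in the cortical as in the subcortical sample, and in mice 1 and 4, the males, 0.729 and 1.12 times. For Tspan7 the ratios of the females (4.28 and 4.08) lay above those of the males (3.33 and 3.27), with an interaction of 0.35 (SE 0.31, 95% interval -0.29 to 0.99). For Cd81 the interaction was 0.38 (SE 0.29, 95% interval -0.23 to 1.00). The Tspan6 interaction was the largest, at 1.01, with an SE of 0.67.

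**Figure D4:**
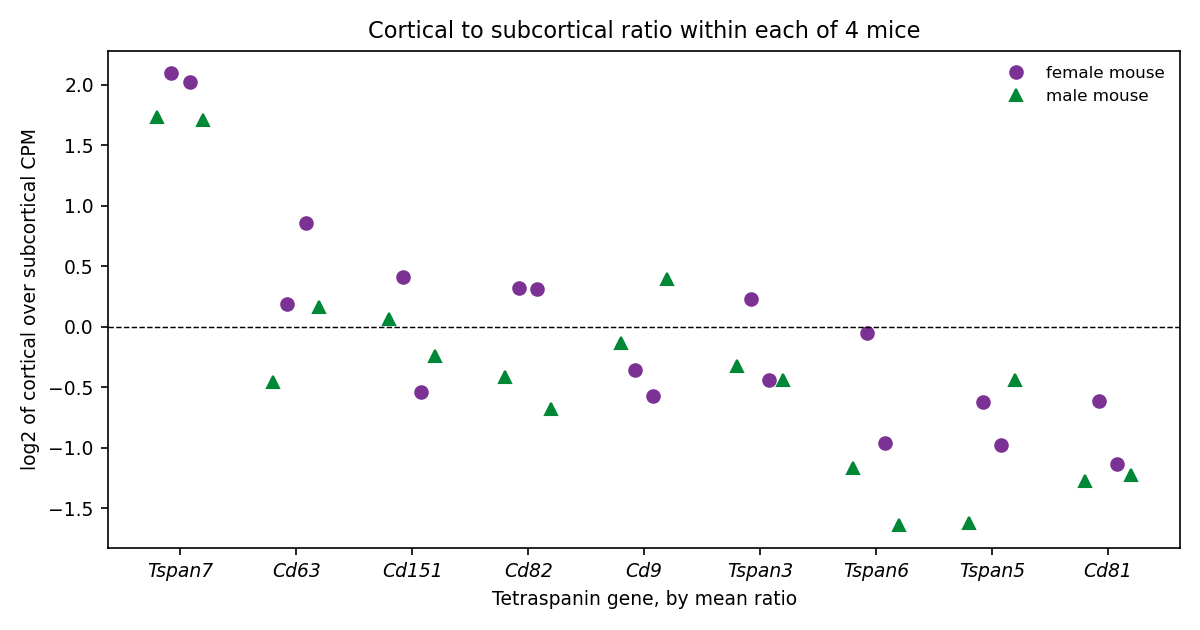
Log2 ratio of the cortical to the subcortical CPM of each of the 9 genes (y axis; dashed line at equal levels) within each of 4 mice, with circles for females and triangles for males. All 4 mice lie above the line for Tspan7 and below it for Cd81, Tspan5 and Tspan6, and for Cd82 the females lie above and the males below.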

How the data were processed

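RNA of flow-sorted astrocytes was made into 3′ end libraries (QuantSeq, forward version), per the labels' protocols. The build GRCm39 and the tools STAR 2.6.0 and HTSeq 0.9.0 are named, with FastQC 0.11.5 and DESeq2 1.35.0, in the submitters' processing notes. Their settings, strand and the use of molecular identifiers are not given there, which leaves overlapping or near-identical genes uncertain. The deposited values are whole-number counts per gene and were used unchanged. Reads without a feature were 30.2 to 40.7% and ambiguous ones 0.384 to 0.548% of assigned and unassigned reads together; the 5 summary rows were left out throughout. A deposited table of normalized values was not used here. Symbols matched 52083 of 55417 rows. Floors (3 counts) cover counting error only, whereas the intervals of fold changes come from the fits and include the spread between libraries.

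Counts were tested with edgeR 4.0.16 (R 4.3.3): filterByExpr (minimum 10 counts, 15 in total), TMM factors, quasi-likelihood tests and Benjamini-Hochberg adjustment at 0.05 over all tested genes. Region was fitted as 4 libraries against 4. Sex was tested on counts summed per mouse (2 against 2) and, with the interaction, in a fit with 1 mean per sex and region. Alternatives were DESeq2 1.42.0, limma-voom (limma 3.58.1), other size factors, no filter or a 5 CPM filter, TMM factors from genes other than mitochondrial and other-cell ones, a block for the mouse, each library or mouse left out, and an adjusted p under 0.01. Scaling by library totals alone was added after the data were seen. The models were tested on simulated data. The 9 genes, the lists and the tests were chosen with earlier results of these data known. Named genes are the 9, the called members of each list (up to 4, or 8 for tetraspanins, by smallest p), the 4 most abundant other tetraspanins and the 5 nearest profiles of Tspan7 and Cd81. Tspan12, Tspan33, Adam10, Itgb1, Igsf8, Pick1, Gria2, Fzd4, Sdcbp, Flot2, Lamp1 and the tetraspanins named for few or no counts fall outside this rule and were chosen after their values were seen. The same holds for Itga3, Itgb4 and Slc3a2.

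Samples of the same mouse number came from the same animal, per the titles, and so are paired. As a check, the correlation over genes of deviations from region means was 0.0248 to 0.0657 for samples of 1 mouse and -0.0936 to 0.0523 for different mice. Chi-square per degree of freedom was 12.3 to 26.4 between libraries of a region, above sampling noise, and each was taken as a replicate.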

Additional observations from a re-analysis of the deposited data

Results flagged for a closer look

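Among the cortical libraries, Tspan6 in cortical 2 (22.5 CPM) stood apart from the other 3 (11.6 to 12.4 CPM), with a gap to the nearest library of 0.921 of the whole range. Among the subcortical libraries, Tspan7 in subcortical 3 (492 CPM) stood below the other 3 (621 to 646 CPM), with a gap of 0.837 of the range. Chance alone puts about 1 in 20 groups of 4 past the limit used. For Cd82 the cortical to subcortical ratio was above 1 in both females (1.25 and 1.24) and below 1 in both males (0.751 and 0.625). In the fit without a term for the mouse, the interaction on the log2 scale was 0.88 (SE 0.85). It did not pass edgeR's quasi-likelihood test (adjusted p = 1.00).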

How the results depend on the processing

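As a description of values used in choosing the genes, the log2 fold changes of Tspan7, Cd81 and Tspan5 ran over 1.80 to 2.11, -1.15 to -0.86 and -0.99 to -0.69 across the alternatives run. The ends at 2.11, -0.86 and -0.69 came from library totals alone, which moved the median of all tested genes to 0.19 and the calls to 682 higher and 244 lower (403 and 399 with TMM). The cause was not tested for the changes below. With the mouse as a replicate block, 886 genes were called by region in place of 802, and 1 gene was called for the interaction. The block also called 1 other tetraspanin and 2 vesicle genes. Region calls of the 9 genes, here and below, only describe values used in choosing them, and the block changed none. DESeq2 called 1 other tetraspanin and 9 genes by sex in cortical samples. Without a filter 2 other tetraspanins, 2 vesicle genes, 15 genes by sex per mouse, 16 by sex in cortical samples, 8 by sex in subcortical samples and 1 for the interaction were called. The 5 CPM filter called 1 other tetraspanin and 1 gene by sex per mouse, library totals alone 1 other tetraspanin (higher) and 4 vesicle genes, and an adjusted p under 0.01 left 477 genes by region, 3 by sex in cortical samples and 0 vesicle genes. With 1 library or mouse left out, calls ranged over 614 to 775 genes by region, 3 to 4 of the 9 tetraspanins (4 without cortical 2), 0 to 1 other tetraspanins, 3 to 5 partners, 0 to 2 vesicle genes (0 without cortical 3, 2 without subcortical 3), 2 to 3 lysosomal genes, 12 to 30 genes by sex per mouse, 3 to 18 by sex in cortical samples, 5 to 11 by sex in subcortical samples and 1 to 2 for the interaction. A mouse left out leaves 1 mouse of a sex, whose spread is then assumed to be that of the others.

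Values near 0 changed sign without passing a test. With library totals alone, the log2 fold change was 0.031 for Tspan9 and 0.15 for Tspan31. The Cd151 interaction was -0.00875 with other size factors, -0.00923 with DESeq2 and -0.00203 with the 5 CPM filter. With a library or mouse left out, the region difference ran from -0.28 to 0.061 for Tspan31 and from -0.028 to 0.14 for Tspan14, and, as a description, from -0.33 to 0.028 for Cd9, -0.20 to 0.097 for Cd82 and -0.21 to 0.081 for Cd151. The difference by sex per mouse ran from -0.079 to 0.12 for Tspan5, -0.37 to 0.19 for Tspan6, -0.098 to 0.36 for Tspan7 and -0.0067 to 0.11 for Cd81. In cortical samples it ran from -0.17 to 0.56 for Tspan5, -0.040 to 0.91 for Tspan6 and -0.078 to 0.32 for Tspan7. In subcortical samples it ran from -0.27 to 0.16 for Tspan5, -0.067 to 0.15 for Cd82, -0.25 to 0.074 for Cd81, -0.18 to 0.36 for Tspan3 and -0.019 to 0.56 for Cd151. The interaction ran from -0.24 to 0.34 for Cd151 and from -0.11 to 0.62 for Tspan5. The fewest counts behind the 9 genes were those of Cd82 and Tspan6, 331 and 553 in all.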
